A study of Homo sapiens with 16 samples.

Results

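Heat shock and protein folding genes were taken from a table of Argonaute 2 (Ago2) binding peaks in human 293S cells, an established embryonic kidney line. A gene was a member when its name was that of a heat shock protein, a J protein (DNAJ), a chaperonin subunit (CCT or TCP1), a disulfide isomerase (PDIA or P4HB), an immunophilin (FKBP or PPI), a BAG cofactor, STIP1, HYOU1, CALR or CANX. This gave 33 of the 2213 genes in the table, with 89 of its 4718 distinct peaks. By compartment, 19 members are cytosolic, 11 belong to the endoplasmic reticulum (ER), 2 to mitochondria and 1 to the nucleus. The choice used gene names only and no measured value, but it was made with earlier results of these data known.

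Ago2 holds microRNAs and is guided by them to matching transcripts, and CLIP crosslinks it to the RNA it touches, precipitates it and sequences that RNA. Cells had no treatment or 30 min of hippuristanol at 1 µM, a compound that inhibits eIF4A, the RNA helicase that opens the way for ribosomes to start on an mRNA. The sample titles number 2 replicates per treatment, taken here as cultures. Each replicate number has 3 CLIP libraries, made with Ago2 antibodies from 3 suppliers, and 1 RNA-seq library. Both groups were the same line grown as an adherent monolayer, with no other genotype or agent named. No peak fell in any of 12 markers of other cell types (such as blood, liver and muscle), and of 3 genes chosen for the 293 lineage only NEFL had one. A gene without an Ago2 peak may still be expressed, so these counts cannot show which cells were used.

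Molecular chaperones bind unfolded proteins and help them reach or regain their shape. In the cytosol, HSP70 proteins work with J proteins, HSP110-type exchange factors and BAG proteins, HSP90 proteins mature kinases and receptors, and the CCT ring folds actin and tubulin. In the ER, the lectins calnexin and calreticulin hold new glycoproteins, and disulfide isomerases form and reshuffle their disulfide bonds.

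Each peak carries 2 values of the authors, with no library named: a log average over both treatments, and a log ratio, hippuristanol over untreated. Neither the labels nor the file name the log base, so differences are in the authors' log units and are not folds. With 1 pooled value per peak there is no replicate, and the comparisons below are descriptions without tests. Intervals below are 95% and describe the spread over peaks or genes, not over cultures, and peaks of 1 gene that overlap are not independent. The depth of each library is unknown. A log ratio can move with Ago2 on a transcript or with the amount of the transcript, and since RNA-seq values were not analysed here the 2 cannot be told apart, nor can fewer cells and less RNA per cell.

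Log ratios of the folding genes lay mostly above 0, as did those of the table. Of the 89 member peaks, 63 (70.8%, exact binomial interval 60.2% to 79.9%) lay above 0, where 59.1% of all peaks did. By gene, taking the median of its peaks, 24 of the 33 members lay above 0, where 60.5% of all genes did. The median over the members was 0.25 (interval 0.07 to 0.44), which is 0.08 above the 0.17 of all genes. A log ratio above 1 was listed for 17 member peaks, where 11.3% of all peaks passed 1, and one below −1 for 6, where 4.22% did. CANX held 6 of those 17, and without CANX 52 of 75 peaks (69.3%) lay above 0. The members' interval holds the median of all genes, so the list as a whole is not set apart from the table by its median.

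**Figure D1:**
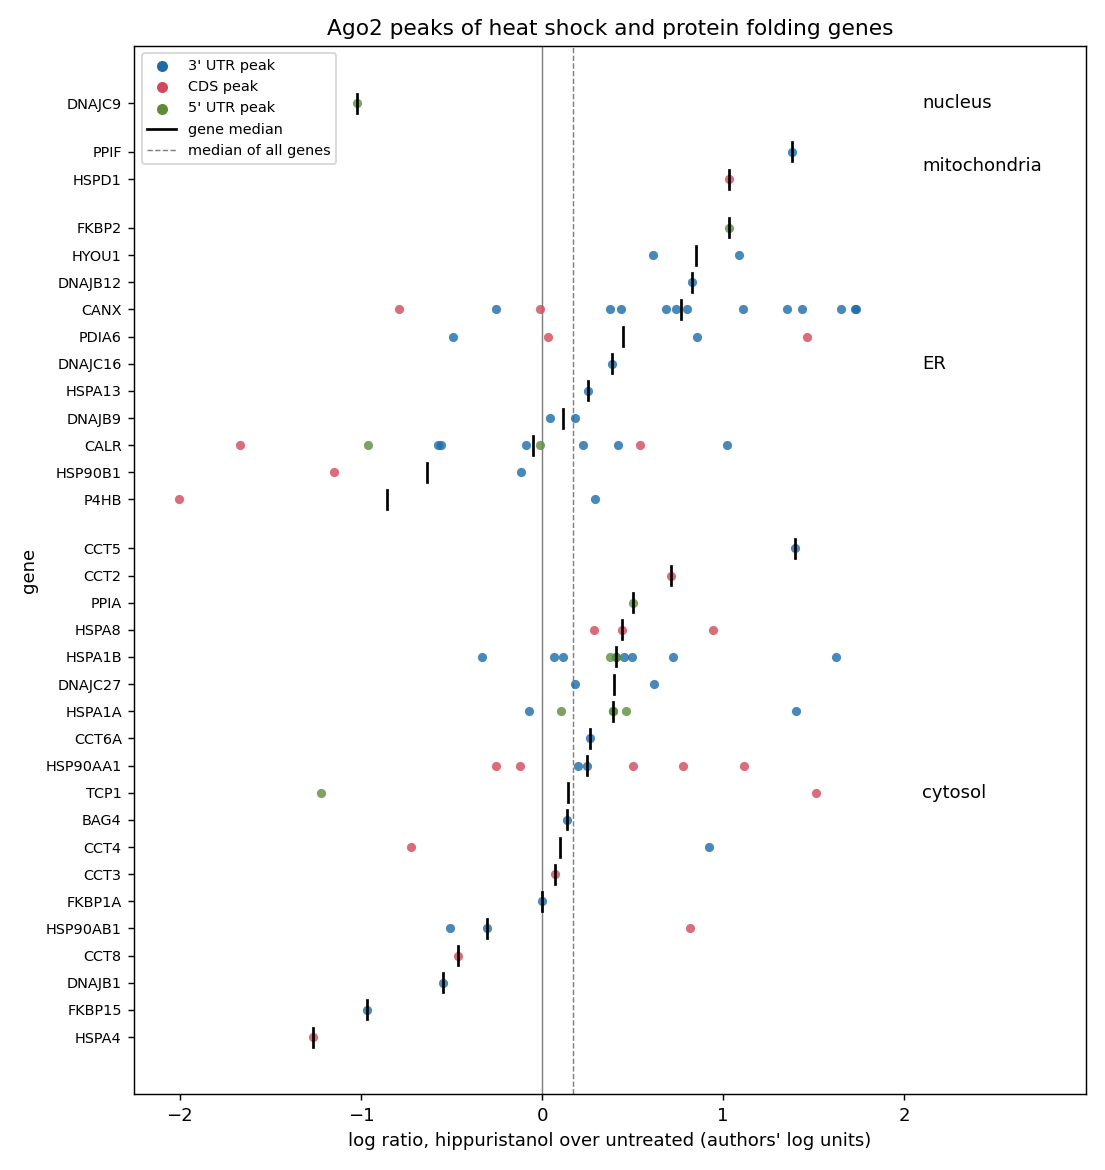
Log ratio (hippuristanol over untreated) of each Ago2 peak (points, coloured by transcript part) of the 33 genes, grouped by compartment and ordered by gene median (black bars). The dashed line is the median of all genes, 0.17, and the solid line is 0. CANX peaks in the 3′ UTR lie mostly right of the dashed line, and the lowest point is the P4HB peak in coding sequence at −2.01.

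The level of Ago2 signal on many folding genes was low. The median log average over members was −7.45 (interval −8.01 to −5.43) against −6.30 for all genes, and 20 of the 33 lay below the median of all genes. The lowest were HSP90B1 at −10.66, CANX at −9.80, HSP90AA1 at −9.30, HSPA4 at −9.04 and CALR at −8.88. At the other end stood PPIA (cyclophilin A, a proline isomerase of the cytosol), whose single 5′ UTR peak stood at −1.49, with a log ratio of 0.50. FKBP2, a proline isomerase of the ER, followed at −3.95 and DNAJC27, a small GTPase with a J domain, at −4.45. HSPA1B held the strongest 3′ UTR peak of the members, at −3.08. The sources used here do not say whether the authors' normalization divides by transcript amount, so a low log average need not mean few bound reads.

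**Figure D2:**
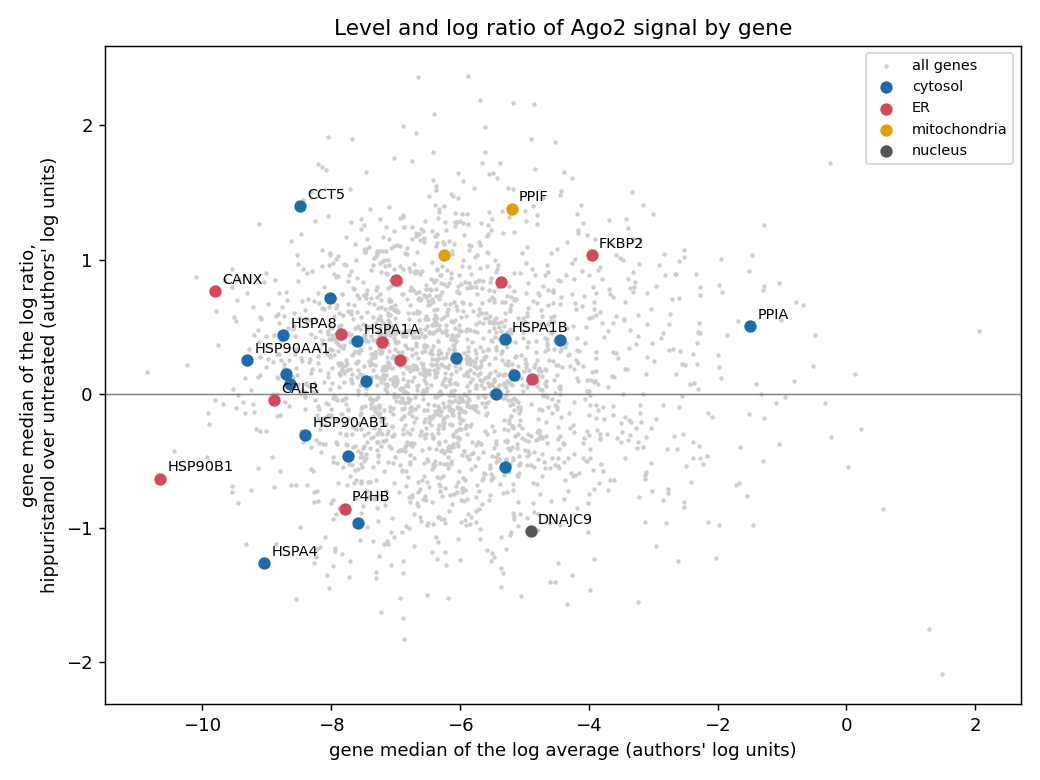
Gene median of the log average (horizontal) against gene median of the log ratio (vertical) for all genes (grey) and the 33 folding genes (coloured by compartment), both axes in the authors' log units. HSP90B1, CANX and HSP90AA1 sit at the left edge, between −10.66 and −9.30, and PPIA sits far right at −1.49.

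ER and cytosolic members had overlapping log ratios. The 11 ER genes had a median of 0.39 (interval −0.63 to 0.85), with 8 above 0, and ranged from −0.86 in P4HB to 1.03 in FKBP2. The 19 cytosolic genes had a median of 0.14 (interval −0.30 to 0.41), with 14 above 0, and ranged from −1.26 in HSPA4 to 1.40 in CCT5. The ER median was 0.24 above the cytosolic one, and each interval holds the other group's median. This difference turned to −0.0032 when overlapping peaks were reduced to 1, and to −0.03 with soluble ER proteins set against a narrower cytosolic list. Both compartments had like shares of peaks above 0, with 27 of 40 (67.5%) in the ER and 34 of 46 (73.9%) in the cytosol.

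Peaks were split by transcript part, the 3′ UTR, the coding sequence (CDS) and the 5′ UTR. In 3′ UTRs, 41 of 53 member peaks (77.4%, interval 63.8% to 87.7%) lay above 0, where 58.7% of all 3′ UTR peaks did. Without CANX the count was 30 of 41 (73.2%, interval 57.1% to 85.8%). A log ratio above 1 was listed for 12 of the 53, where 11.6% of all 3′ UTR peaks passed it, and without CANX for 6 of 41 (14.6%), near that share. None of the 53 lay below −1, where 128 of all 2894 3′ UTR peaks did. In CDS 14 of 24 lay above 0, where 62.2% of all CDS peaks did, and in 5′ UTRs 8 of 12, where 63.2% of all such peaks did. In 3′ UTRs, ER peaks had a median of 0.43 over 29 peaks, 12 of them in CANX, and 0.25 over the 17 others, beside 0.20 over 23 cytosolic peaks. With 1 value per gene the 3′ UTR medians were 0.27 in the ER and 0.24 in the cytosol. In CDS, ER peaks had a median of −0.40 over 8 peaks of 5 genes, from −2.01 to 1.46, and cytosolic peaks 0.44 over 15 peaks. The shares above 0 were 23 of 29 (79.3%) in 3′ UTRs and 3 of 8 (37.5%) in CDS for the ER, and 17 of 23 (73.9%) and 10 of 15 (66.7%) for the cytosol. The share was thus lower in CDS in both compartments, while the cytosolic median was higher there, and no difference between compartments was tested.

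Of 8 members with peaks in both parts, CDS peaks lay below 3′ UTR peaks in 5, where 47.4% of 234 such genes in the table had that order. The 5 were P4HB, CCT4, CANX, HSP90B1 and CALR, with CDS minus 3′ UTR differences of −2.30, −1.65, −1.35, −1.03 and −0.63. The other 3 were HSP90AB1 at 1.23, PDIA6 at 0.56 and HSP90AA1 at 0.28. So 4 of the 5 ER genes and 1 of the 3 cytosolic genes had the lower CDS value.

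**Figure D3:**
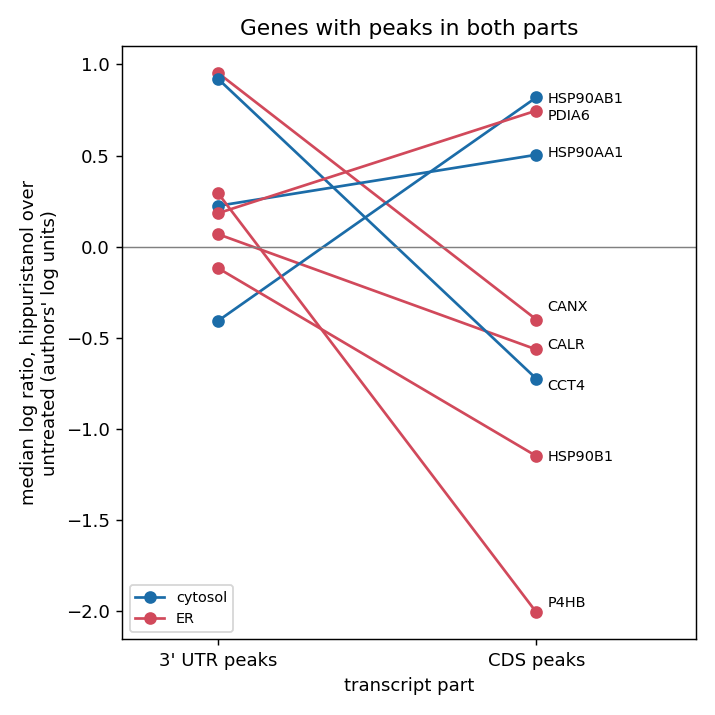
Median log ratio of 3′ UTR peaks (left) and CDS peaks (right) in the 8 folding genes with both, 1 line per gene, coloured by compartment, in the authors' log units. Lines of CANX, CALR, HSP90B1, P4HB and CCT4 run down to the right, and those of HSP90AB1, PDIA6 and HSP90AA1 run up.

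Calnexin (CANX), the membrane-bound lectin of the ER, had the most peaks of any member and high log ratios along its 3′ UTR. Its 12 peaks there (chromosome 5, plus strand, 179156178 to 179157481, hg19) had, from 5′ to 3′, log ratios of 0.38, 0.80, 0.74, 1.43, 1.73, 1.65, 1.11, 0.43, 1.74, 1.35, 0.69 and −0.25. All but the last lay above 0, 6 lay above 1, and the median was 0.95. The 2 CDS peaks had −0.01 and −0.79. Among 23 genes with 10 or more 3′ UTR peaks, none had a higher 3′ UTR median than CANX, and their median was 0.10, a rank looked up after the CANX values were seen. Its log averages were low, between −10.22 and −8.55, and 3 pairs of neighbouring peaks overlapped by 2 to 16 nt.

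Calreticulin (CALR), the soluble partner of calnexin, spread around 0. Its 10 peaks on chromosome 19 had a median log ratio of −0.05 (interval −0.96 to 0.54), with 4 above 0. The 5′ UTR peaks had −0.01 and −0.96 and the CDS peaks 0.54 and −1.67. The 6 in the 3′ UTR had, from 5′ to 3′, 0.42, −0.09, −0.57, −0.56, 0.23 and 1.02. The lectins thus differed in their 3′ UTR medians, 0.95 in CANX and 0.07 in CALR, with ranges that overlapped.

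**Figure D4:**
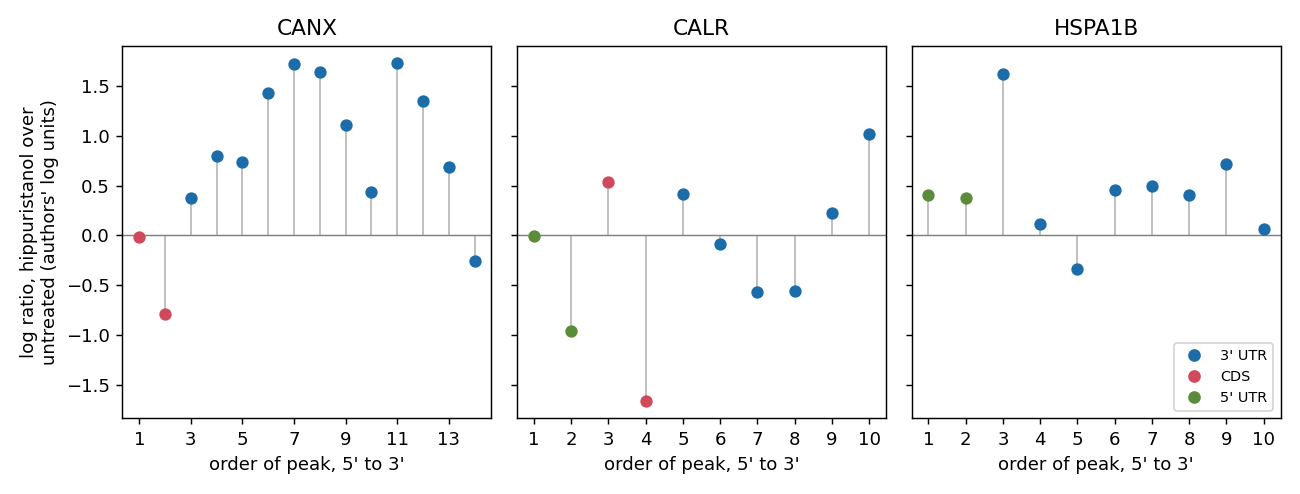
Log ratio (vertical, authors' log units) of the peaks of CANX, CALR and HSPA1B in order from 5′ to 3′ (horizontal), coloured by transcript part. In CANX 11 of 12 3′ UTR peaks lie above 0, in CALR 3 of 6 do, and in HSPA1B 7 of 8 do.

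The disulfide isomerases P4HB and PDIA6 had values on both sides of 0. P4HB had the lowest peak of all members, −2.01 in its CDS (chromosome 17, 79803782 to 79803816, minus strand, hg19), and 0.29 in its 3′ UTR. PDIA6 had CDS peaks of 1.46 and 0.03 and 3′ UTR peaks of 0.86 and −0.49. The pair of PDIA6 peaks in the 3′ UTR overlapped by 2 nt and differed by 1.35.

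Among the other ER genes, HSP90B1, the ER form of HSP90, had −1.15 in its CDS and −0.12 in its 3′ UTR, at the lowest log average of the members. HYOU1, an HSP110-type exchange factor of the ER, had 3′ UTR peaks of 0.61 and 1.09 that overlapped by 33 nt. The J proteins DNAJB12 and DNAJC16, anchored in the ER membrane, had single 3′ UTR peaks of 0.83 and 0.39. DNAJB9, a J protein of the ER stress response, had 0.04 and 0.18. HSPA13, an HSP70 relative of the ER, had 0.25, and FKBP2 had 1.03 in its 5′ UTR. In this group HSP90B1 alone had peaks below 0.

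HSPA1A and HSPA1B encode the heat-inducible HSP70 of the cytosol, and their coding sequences are nearly the same. In the GENCODE transcripts, 1922 of 1926 coding bases were identical, and 95.7% of the 30-base stretches of the HSPA1A CDS also occurred in HSPA1B. The 5′ UTRs shared 1.89% of the HSPA1A stretches, and the 3′ UTRs shared none in either direction. When aligned, however, 88.9% of paired bases were identical in the 5′ UTRs, with 24 mismatches, and 69.1% in the 3′ UTRs. All 16 peaks of the pair lay in the UTRs, the parts in which the transcripts differ more, and none in the CDS. Whether reads at the similar 5′ UTRs were shared between the genes was not tested. The sources used here do not say how reads that fit both genes were handled.

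HSPA1A had 5′ UTR peaks with log ratios of 0.39, 0.47, 0.39 and 0.11 and 3′ UTR peaks of 1.40 and −0.07. HSPA1B had 5′ UTR peaks of 0.41 and 0.37. In its 3′ UTR (chromosome 6, plus strand, 31797632 to 31797990, hg19) HSPA1B had, from 5′ to 3′, 1.62, 0.11, −0.33, 0.45, 0.49, 0.41, 0.72 and 0.07. The gene medians were alike, 0.39 and 0.41. The levels were apart, with log averages of −8.12 to −7.29 over the 6 HSPA1A peaks and −5.93 to −3.08 over the 10 HSPA1B peaks, ranges that did not overlap.

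Among the other HSP70 and HSP90 genes of the cytosol, HSPA8, HSPA4 and HSP90AA1 had their peaks only or mainly in coding sequence. HSPA8, the constitutive HSP70, had 3 CDS peaks with log ratios of 0.44, 0.29 and 0.94. HSPA4, an HSP110-type exchange factor, had 1 CDS peak at −1.26 (chromosome 5, 132427009 to 132427041), the lowest gene value of the members. HSP90AA1, the inducible HSP90, had from 5′ to 3′ CDS peaks of 0.50, 1.12, −0.12, −0.25 and 0.78 and 3′ UTR peaks of 0.20 and 0.25. HSP90AB1, the constitutive form, had 0.82 in its CDS and −0.51 and −0.30 in its 3′ UTR. DNAJB1, the main J protein partner of inducible HSP70, had 1 3′ UTR peak at −0.55. HSPA4 and DNAJB1, both helpers of cytosolic HSP70, thus lay below 0, from 1 peak each. The HSP70 genes HSPA1A, HSPA1B and HSPA8 had gene medians above 0, where 60.5% of all genes did. HSPA1A and HSPA1B also had peaks below 0, at −0.07 and −0.33. BAG4, which binds HSP70, stood at 0.14.

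The chaperonin genes of the cytosol had a median of 0.14, below the 0.17 of all genes. Of their 7 gene values 6 lay above 0, where 60.5% of all genes did, and 3 lay above the median of all genes. By peak, 6 of 9 (66.7%) lay above 0, where 59.1% of all peaks did. The gene values of TCP1 and CCT4 are midpoints of 2 peaks on opposite sides of 0. TCP1 had 1.51 in its CDS and −1.22 in its 5′ UTR, the widest spread of any member at 2.73. CCT4 had 0.92 in its 3′ UTR and −0.72 in its CDS. With 1 peak each, CCT5 had 1.40 and CCT6A 0.26 in the 3′ UTR, and CCT2 had 0.71, CCT3 0.07 and CCT8 −0.46 in the CDS. These proteins form a ring in equal numbers, and their values spanned −0.46 to 1.40. HSPD1, the chaperonin of mitochondria, had 1.03 in its CDS.

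Of the remaining members, PPIF, the cyclophilin of mitochondria, had 1.38 in its 3′ UTR. FKBP1A, the target of rapamycin and FK506, had 0.00083, FKBP15 had −0.96 and DNAJC27 had 0.62 and 0.18, all in 3′ UTRs. DNAJC9, a nuclear J protein that binds histones, had −1.02 in its 5′ UTR.

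Sequence shared with other genes, which include retained pseudogene copies, lay more in CDS than in 3′ UTRs. Over 50% of the 30-base CDS stretches also occurred in other genes, pseudogenes included, for HSPD1 (68.3%), HSPA8 (55.3%), HSP90AB1 (51.3%) and HSP90AA1 (50.9%), among 15 members with CDS peaks. Among 23 members with 3′ UTR peaks none passed 50% in the 3′ UTR, and 18 shared no stretch. CANX, CALR, P4HB and PDIA6 shared none in any part. Without the peaks in parts over 50%, the median over members was 0.22.

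MicroRNA seed matches were counted in the 3′ UTRs of the 23 members with a 3′ UTR peak. A match was the complement of bases 2 to 8 of a microRNA in the 3′ UTR of the GENCODE transcript, on its strand, for 10 families common in human cells. The mature sequences below, from RefSeq (GRCh38.p14), are those whose matches are shown next, with the seed in capitals.
hsa-miR-16-5p: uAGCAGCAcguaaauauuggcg
hsa-miR-301a-3p: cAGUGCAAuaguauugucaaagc
hsa-miR-17-5p: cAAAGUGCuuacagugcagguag
hsa-miR-92a-3p: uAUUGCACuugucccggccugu
hsa-miR-27a-3p: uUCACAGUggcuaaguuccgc

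The windows below show matches in members described above, 23 bases long, 5′ to 3′, with the match in capitals and numbered from the first base of the 3′ UTR. HSPA1B holds 2 matches to the miR-15/16 seed, at bases 59 to 65 and 97 to 103 of 379.
HSPA1B, base 59, miR-15/16: gggactcaaggacttTGCTGCTg
HSPA1B, base 97, miR-15/16: tctgcttcagctcttTGCTGCTt
CANX, base 1543 of 2281, miR-130 family: cgatgatactgtttcTTGCACTg
DNAJB9, base 873 of 1497, miR-92 family: gtgcaaccttactatGTGCAATa
DNAJB9, base 940, miR-17 family: tatttctttagttctGCACTTTt
HYOU1, base 936 of 1404, miR-27: caaaatgtgctttctACTGTGAg
PPIF, base 577, miR-27: tctttcctcctggttACTGTGAa
PPIF, base 596, miR-15/16: tgaagcctgttggttTGCTGCTg
PDIA6, base 281 of 867, miR-15/16: atttttctctctgacTGCTGCTt
Peak positions are in hg19 and were not placed on these transcripts, so whether a match lies under a peak was not tested. HSPA1A holds no match to any of the 10 families in its 264 bases, in contrast to the pair in HSPA1B.

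Of the 23 members with a 3′ UTR peak, 16 held at least 1 match and 7 held none, namely CALR, CCT4, HSP90AA1, HSP90AB1, HSP90B1, HSPA1A and P4HB. Genes without a match made up 21.6% of the 1503 genes of the table with a 3′ UTR peak and a transcript. The 7 had a median log average of −8.40 (−10.66 to −7.45) and a median log ratio of −0.05 (−0.86 to 0.39). The 16 had a median log average of −5.75 (−9.80 in CANX to −4.45 in DNAJC27) and a median log ratio of 0.39 (−0.96 to 1.40). Their 3′ UTRs also differed in length, with medians of 567 and 1450 bases, and the part of length in these values was not tested. Over all genes of the table the corresponding log averages were −6.43 without and −6.33 with a match, and the log ratios 0.17 and 0.18. The members' medians were further apart than those of all genes, but they rest on 7 and 16 genes whose log ratio ranges overlapped. Whether this gap is more than the scatter of small sets was not tested. All these gene values also include peaks outside the 3′ UTR.

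By family, the miR-15/16 match TGCTGCT occurred in 6 of the 23 members (26.1%) and in 33.6% of the 1503 genes. The miR-17 family match GCACTTT occurred in 4 (17.4%) against 32.5%, and the miR-27 match ACTGTGA in 4 (17.4%) against 19.2%. The let-7 match CTACCTC occurred in none of the 23 against 12.4% of the genes. The miR-130 family match TTGCACT overlaps the miR-19 match TTTGCAC by 6 bases where both are present, as in DNAJC16. DNAJC16 and DNAJC27, with 3′ UTRs of 3556 and 3980 bases, held 9 and 6 of the 36 matches. Members' 3′ UTRs had a median of 904 bases against 1597 for the 1503 genes. Among those genes, 3′ UTRs without a match had a median of 384 bases and those with a match 2063.

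Overlapping peaks give a view of how closely values at shared or adjoining positions agree, with overlaps among members of 1 to 33 nt. In 15 pairs of neighbouring member peaks that overlapped, the log ratios differed by a median of 0.45, and 13 pairs lay on the same side of 0. The 474 such pairs in the table differed by a median of 0.34, and 340 of them lay on the same side of 0. In 41 member pairs with no overlap the median difference was 0.79, against 0.60 over 2031 pairs in the table. A difference over 1 occurred in 3 of the 15 overlapping pairs, and in 43 of the 474. One was at the start of the HSPA1B 3′ UTR, where peaks sharing 30 nt had 1.62 and 0.11. The others were in CANX (0.43 and 1.74) and PDIA6, where the peaks shared only 2 nt and are nearly separate sites. Single-peak genes carry an uncertainty that these data cannot bound, and 18 of the 33 members have 1 peak.

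Other genes of protein folding and quality control, from a list of 57 names outside the rule, had peaks in 13. Of these 10 lay above 0 and 3 below, where 60.5% of all genes lay above 0. Their median log ratio was 0.28 (interval −0.03 to 0.78), an interval that holds the 0.17 of all genes. SEL1L, the adaptor of ER-associated degradation, had 1.09, and EDEM3, a mannosidase of that pathway, had 1.53 and 0.60. PPP1R15B, which directs the removal of the eIF2 alpha phosphate that stress kinases add, had 12 3′ UTR peaks with a median of 0.71, from −0.52 to 1.51. GANAB, the glucosidase that prepares glycoproteins for the lectins, had −0.89 in its CDS, and ATF4, a stress transcription factor, had 0.10 in its 5′ UTR. The HSP90 cofactors AHSA1, PTGES3 and CHORDC1 had 0.25, 0.28 and 0.55 from 1 peak each. Heat shock factors HSF1 and HSF2 were among the 44 names with no peak.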

How the data were processed

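The labels describe 16 libraries from 293S cells, 12 of Ago2 CLIP and 4 of RNA-seq. The table analysed holds 2 deposited scores per peak, a normalized log average over both treatments and a normalized log ratio between them, per the file headers. No library is named, and the values were taken as pooled over CLIP libraries. The sources used here give no log base, normalization method, peak caller or way of pooling. Bowtie 0.12.8, TopHat and DESeq are named with hg19 in the submitters' processing notes, without roles. Coordinates are printed as listed, and whether starts count from 0 or 1 is not given.

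Peaks of a gene with identical values were counted once (none among members), and each gene was given its median peak. Intervals are order-statistic (medians) or Clopper-Pearson (shares), computed with scipy 1.17.1. Only the median interval was checked on simulated data, drawn with independent genes and peaks, and the share interval was not. Library depth is unknown, so counting error has no interval. No test between treatments was made, since pooled values hold no replicates. Transcripts were GENCODE 29 (GRCh38), matched by RefSeq identifier for all 33 members. Stretches of 30 bases were compared on the same strand. Text names members with 3 or more peaks, all ER, HSP70, HSP90, CCT and TCP1 genes and the extreme peaks, and the remaining members are given briefly. Members and lists were chosen with earlier results of these data known.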

Additional observations from a re-analysis of the deposited data

How the results depend on the processing

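The median log ratio over members stayed above 0 under all 12 alternatives, from 0.07 with CDS peaks only to 0.26. Counting every listed peak and leaving out names that are no chaperones removed or added nothing among members, so these settings could not move it. Relative to the median of all genes it was 0.08. The share of member peaks above 0 was 58.3% with CDS peaks only, and otherwise 68.9% to 79.1%. With the median of all genes as zero, 61.8% of member peaks lay above that median. With CDS peaks only, the cytosolic median was 0.44 (9 genes), the ER median −0.56 (5 genes) and their difference −1.003. With the median of all genes as zero the cytosolic median was −0.02. Across 13 alternatives the ER minus cytosolic difference ranged from −1.003 to 0.25 and lay below 0 in 3, so its direction depends on the setting. The same settings, and a shift of the zero, could not change this difference. Alternatives without CANX (also by transcript part) and without shared sequence parts were chosen after seeing the data. No paired analysis was possible because the table holds 1 pooled value per peak, and for the same reason no replicate could be left out. Unknown depth and single peaks limit the value of any 1 gene.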
